A study of Arabidopsis thaliana with 6 samples.

Results

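The xyloglucan endotransglucosylase/hydrolase (XTH) genes of Arabidopsis thaliana were followed over 6 Affymetrix arrays of 9-day-old seedlings. Members were the genes whose symbol or synonym is XTH with a number and that have a probe set annotated to that gene alone. Of 33 such genes named in RefSeq (TAIR10.1), 10 qualified, each with 1 probe set, among the 22746 probe sets that are not controls. They were XTH16, XTH18, XTH19, XTH20, XTH21, XTH26, XTH27 (listed as EXGT-A3), XTH29, XTH32 and XTH33. The other 23 were not analysed here. The rule itself uses names and annotation and no measured value, though the family was picked with earlier results of these data known.

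Each of 3 groups had 2 arrays. HY213 seedlings had 8 h of estradiol, or 8 h of mock treatment, and wild-type (WT) seedlings had 8 h of estradiol. HY213 is taken to be the pER22-AGL24 line, in which estradiol switches on a transgene for the MADS-box flowering regulator AGL24, because it is the line set beside the wild type in the titles. Both HY213 groups carry the transgene and both estradiol groups share the chemical, so no group is untransformed and untreated. The ecotype is given as Columbia for 5 of the samples and is absent for mock replicate 1. The 2 replicates were independent pools of seedlings, per the design text. How many seedlings were pooled, how many lines carry the transgene and which promoter drives the estradiol receptor are not given in the sources used here.

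Plant primary walls hold cellulose microfibrils in a matrix that includes the hemicellulose xyloglucan. XTH enzymes cut a xyloglucan chain and join the new end to another chain, and some members hydrolyse the chain instead. They are known for their part in loosening, strengthening and building the wall of growing cells, and many are expressed in only some root or shoot tissues. The backbone of xyloglucan is made by glucan synthases of the CSLC family.

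Array medians lay between 6.95 and 7.27 intensity units, and the Bacillus controls, probe sets with no target in the plant RNA, reached 5.14 to 6.22. AGL24 read 106 and 401 in estradiol-treated HY213, 4.98 and 4.87 in mock-treated HY213 and 5.05 and 4.60 in estradiol-treated WT, replicates 1 and 2 in this order here and in what follows. The labels name whole seedlings. Marker names were matched to probe sets that the platform annotation lists for 1 gene. Of the 22746 probe sets 8730 have no gene listed, so an unmatched name may still be on the arrays. The green shoot genes RCA, LHCB4.1, LHCB4.2 and PSAN (4 of 16 names matched) read above the Bacillus controls on all 6 arrays. So did the root hair expansins EXPA7 and EXPA18 (2 of 20 root names). The seed marker OLEO3 (1 of 15) was above them on 4 arrays at 5.22 to 6.38, and 0 of 7 flower names were matched. The mock replicate 1 array had the highest ratio of 3' to 5' actin probe sets, a sign of shorter RNA or cDNA, at 3.87. The ratio was 2.80 in WT replicate 1 and 1.86 to 2.06 on the other 4 arrays. In whole seedlings, fewer cells that express a gene cannot be told apart from less RNA of the gene per cell.

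Of the 10 XTH genes, 7 read above the highest Bacillus control of the array on all 6 arrays, as did 53.2% of all probe sets. The other 3, XTH20, XTH21 and XTH29, were under it on every array. XTH27, known for a role in the tracheary elements of leaf veins, had values between 57.7 and 77.8 times that control. XTH18, one of a set of closely related XTH genes known from roots, had values between 10.8 and 50.9 times the control. The remaining 5, XTH16, XTH19, XTH26, XTH32 and XTH33, lay between 1.07 and 3.80 times the control. These ratios say how far a probe set stood from background. Probe sets bind with unequal strength, so they do not order the genes by transcript level.

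**Figure D1:**
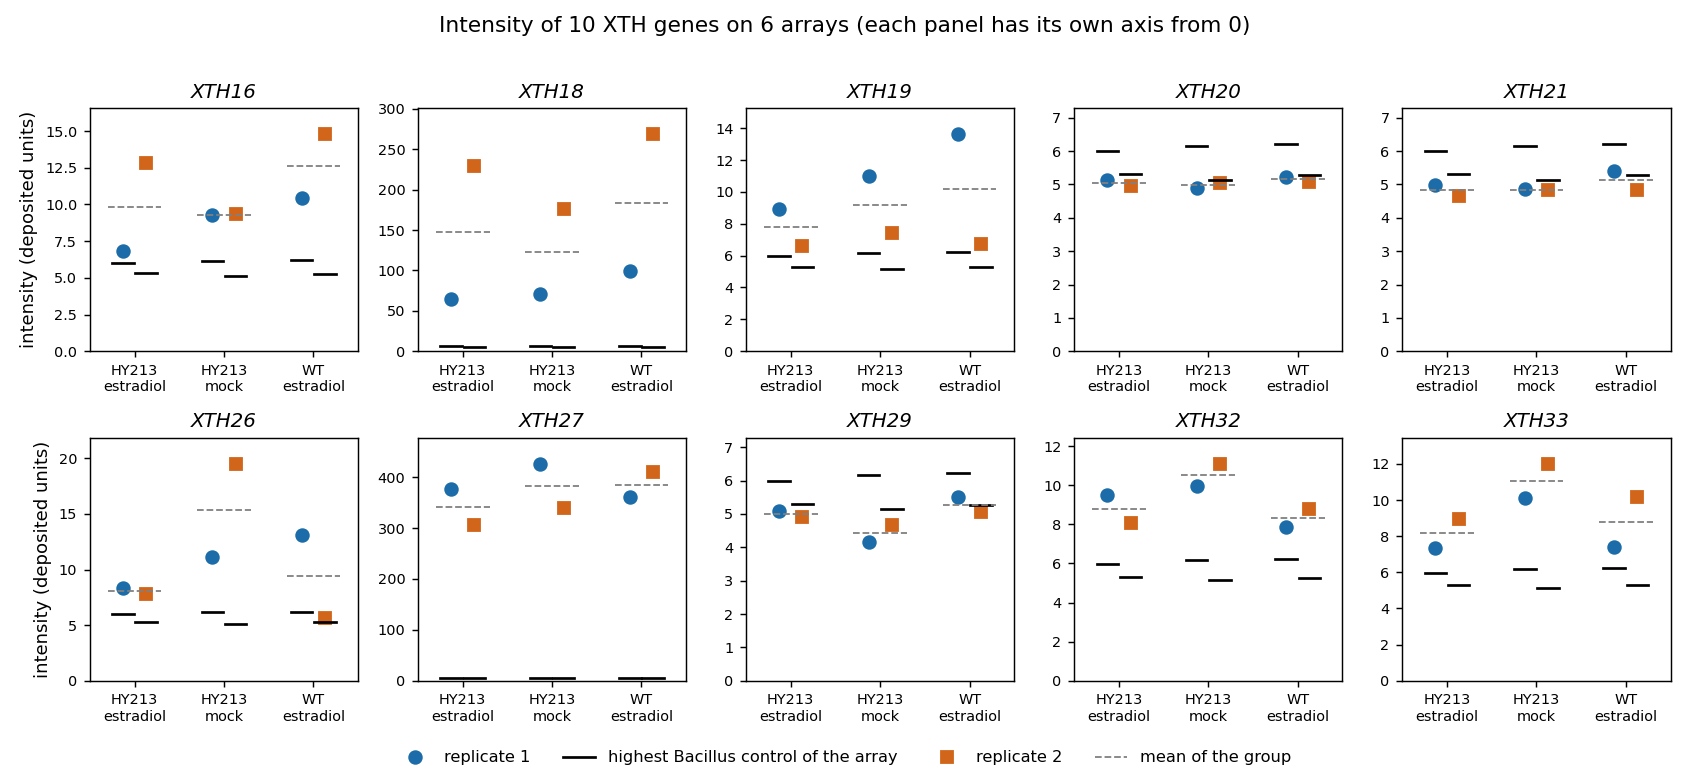
Deposited intensity of the 10 XTH genes on the 6 arrays (y axis, each panel with its own scale from 0) for estradiol-treated HY213, mock-treated HY213 and estradiol-treated WT. Circles are replicate 1, squares replicate 2, dashed lines the mean of 2 arrays and short black lines the highest Bacillus control of each array; XTH18 squares stand above its circles in each group, and XTH20, XTH21 and XTH29 stay under the control lines.

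The estradiol and mock samples of HY213 were compared for transcripts that differ once AGL24 is induced, whether through AGL24 or through the chemical. In this comparison 3 XTH genes, XTH26, XTH32 and XTH33, read lower on both estradiol arrays than on both mock arrays, at 0.400 to 0.954 times mock within a replicate. Over all probe sets 10.7% had that pattern. None of the 10 passed the adjusted p threshold of limma, so none is called changed. Of all 22746 probe sets 0 passed it, and AGL24 itself was not called. The lack of calls therefore does not show that the XTH genes were unchanged.

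XTH26, known from root hairs, read 8.38 and 7.80 in estradiol-treated HY213 and 11.1 and 19.5 in mock-treated HY213. The groups do not overlap, and the mock replicate 2 array is the highest of the 6. The means were 8.09 ± 0.41 and 15.3 ± 5.91 (SD, n = 2 each). The estradiol level was 0.752 times mock in replicate 1 and 0.400 times in replicate 2. On the log2(intensity + 16) scale the difference was -0.37 ± 0.17 (SE; limma adjusted p 1, unadjusted p 0.0772). Blocked on replicate number, the unadjusted p was 0.0449 and the adjusted p 0.998. The size of the difference turned on the mock arrays and the pseudocount: it was -0.17 without mock replicate 2, -0.56 without mock replicate 1, -0.14 with a pseudocount of 64 and -0.87 with none.

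XTH33, whose product is anchored at the plasma membrane, read 7.33 and 8.97 in estradiol-treated HY213 and 10.1 and 12 in mock-treated HY213. Both estradiol values are under both mock values, and the ratio was much the same in the replicates, 0.726 and 0.747. The log2 difference was -0.16 ± 0.08 (SE; limma adjusted p 1, unadjusted p 0.0893). With the block the unadjusted p was 0.0146, the adjusted p 0.998 and the 95% interval -0.29 to -0.042. XTH32, of the subgroup with predicted hydrolase activity, read 9.49 and 8.05 in estradiol-treated HY213 and 9.94 and 11.1 in mock-treated HY213. The groups do not overlap, and the ratio was 0.954 in replicate 1 and 0.726 in replicate 2.

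XTH27 and XTH19 were also lower within both replicates, with groups that overlap. XTH27 read 377 and 306 in estradiol-treated HY213 and 426 and 340.2 in mock-treated HY213, ratios of 0.885 and 0.899. XTH19, the chromosomal neighbour of XTH18, read 8.95 and 6.61 in estradiol-treated HY213 and 11 and 7.40 in mock-treated HY213, ratios of 0.813 and 0.892.

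In XTH18 and XTH16 the replicates went opposite ways. XTH18 read 64.7 and 229 in estradiol-treated HY213 and 70.3 and 176 in mock-treated HY213, 0.920 times mock in replicate 1 and 1.30 times in replicate 2. XTH16 read 6.82 and 12.9 in estradiol-treated HY213 and 9.27 and 9.33 in mock-treated HY213, ratios of 0.736 and 1.38. The mock arrays were nearly equal in XTH16, and the estradiol arrays lay on either side of them.

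The 3 genes under the Bacillus controls carry no difference that can be read. XTH20, one of the root-expressed relatives of XTH18, stayed between 4.90 and 5.23 over the 6 arrays. XTH21, known from root growth, stayed between 4.66 and 5.41. XTH29 stayed between 4.15 and 5.50.

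Over the 10 genes, 5 were lower within both replicates (24.2% of all probe sets were) and 1, XTH29, which is under the controls, was higher within both (25.6%). The median log2 difference of the family was -0.042, against -0.00044 over all 22746 probe sets. It was -0.11 within replicate 1 and -0.031 within replicate 2, and -0.0014 without the mock replicate 1 array. limma called 0 of 10 at an adjusted p of 0.05 (0% of all probe sets), with and without the replicate block. At an unadjusted p under 0.05 there were 0 of 10 without the block (1.20% of all probe sets) and 2 of 10 with it (4.23%), XTH26 and XTH33. The widest blocked 95% intervals were those of XTH18, -0.28 to 0.54, XTH26, -0.72 to -0.010, and XTH27, -0.56 to 0.25. Differences of that size, on the scale with the pseudocount, are not excluded in these genes. The pseudocount shrinks the differences of dim genes, so their narrow intervals do not bound the fold change. With no pseudocount the difference was -0.87 in XTH26, outside its interval above, -0.44 in XTH33, -0.27 in XTH32 and -0.23 in XTH19. XTH16 went the other way, from 0.021 with the pseudocount to 0.010.

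The root hair and green shoot markers also had negative differences against mock. The root hair expansins EXPA7 and EXPA18 were below mock within both replicates. So were 5 of the 10 XTH genes, the root hair gene XTH26 among them, and 24.2% of all probe sets. The summed intensity of the expansins was 40.2 and 23.5 in estradiol-treated HY213 and 47.4 and 34.2 in mock-treated HY213. EXPA18 had a log2 difference of -0.30 (limma adjusted p 1), with a blocked unadjusted p of 0.0441 and adjusted p of 0.998. The 4 green shoot genes had a median log2 difference of -0.14, negative in all 4, as it was in 50.6% of all probe sets. Within replicate 2, LHCB4.2 was 1.02 times mock and PSAN 1.09 times, with LHCB4.1 at 0.995 and RCA at 0.925. The sum of the 4 was 1976 and 2845 in estradiol-treated HY213 and 2448 and 2878 in mock-treated HY213. Of these 6 markers 0 were called, and their part in the XTH differences was not tested.

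**Figure D2:**
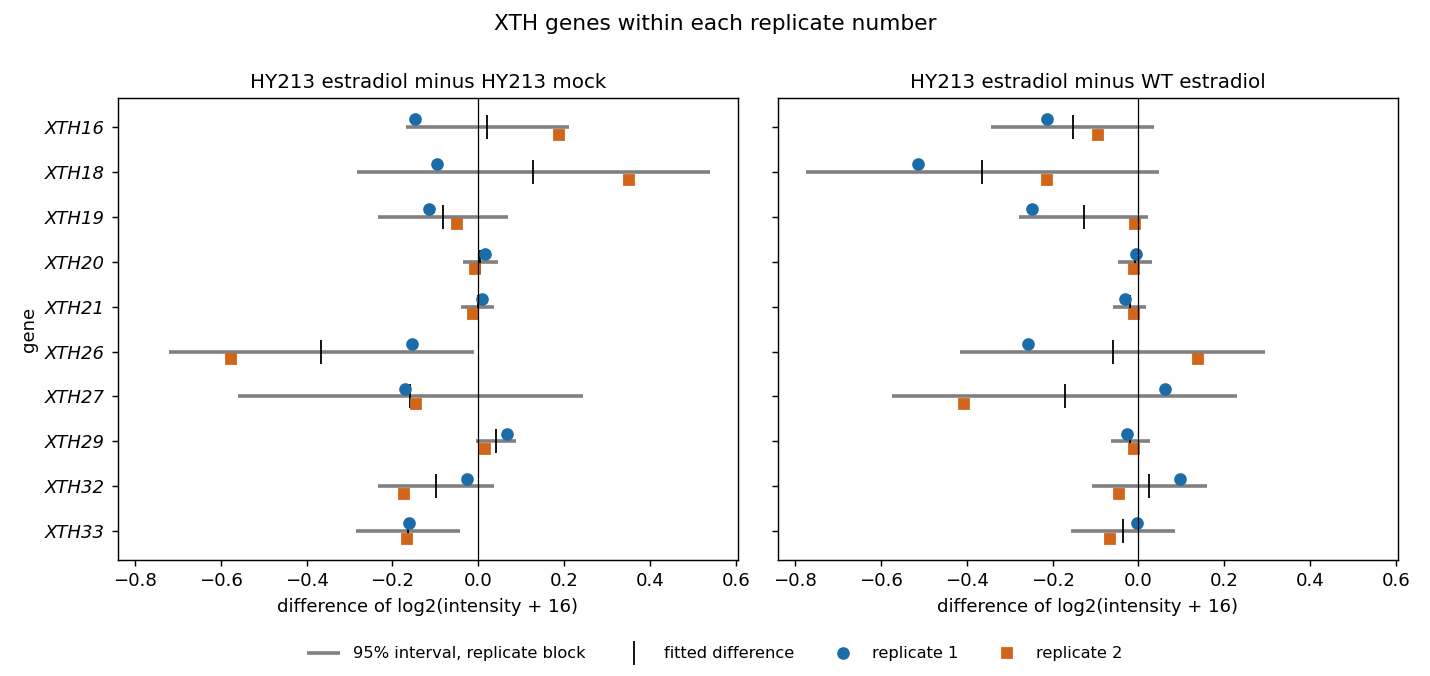
Difference of log2(intensity + 16) for each XTH gene (rows), estradiol-treated HY213 minus mock-treated HY213 on the left and minus estradiol-treated WT on the right. Circles are replicate 1, squares replicate 2, vertical ticks the fitted difference and grey bars its 95% interval with the replicate number as a block; at left the bars of XTH26 and XTH33 lie below 0 before any adjustment, and at right every bar spans 0.

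Estradiol-treated HY213 against estradiol-treated WT holds the chemical constant and asks what differs with the line. Of the 10 genes, 7 read lower in HY213 within both replicates, where 25.4% of all probe sets did, and 0 read higher within both, where 27.4% did. Of the 7, XTH20, XTH21 and XTH29 are under the Bacillus controls, which leaves XTH16, XTH18, XTH19 and XTH33. In 0 of the 10 genes were both HY213 arrays under both WT arrays (10.5% of all probe sets) or above them (12.7%).

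XTH18 read 64.7 and 229 in HY213 and 99.2 and 268 in WT, with ratios of 0.652 and 0.854. Its means were 147 ± 116 in HY213 and 184 ± 120 in WT (SD, n = 2 each), and the spread within each group exceeds the difference between them. The log2 difference was -0.36 ± 0.69 (SE; limma adjusted p 1). With the replicate block the unadjusted p was 0.0760, the adjusted p 0.998 and the 95% interval -0.77 to 0.048.

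XTH16 read 6.82 and 12.9 in HY213 and 10.5 and 14.8 in WT, ratios of 0.653 and 0.870. The groups overlap, and HY213 replicate 1 is the lowest of the 6 arrays. XTH19 read 8.95 and 6.61 in HY213 and 13.6 and 6.74 in WT. Its ratio was 0.657 in replicate 1 and 0.981 in replicate 2, where all 3 groups lie close to the control. XTH33 read 7.33 and 8.97 in HY213 and 7.39 and 10.2 in WT, a ratio of 0.992 in replicate 1 and 0.883 in replicate 2. The HY213 arrays of XTH33 were thus close to those of WT, while both lay under mock within each replicate.

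The replicates disagreed in direction in 3 genes. XTH26 read 8.38 and 7.80 in HY213 and 13.1 and 5.62 in WT, ratios of 0.638 and 1.39. The WT replicate 2 value is 1.07 times the highest Bacillus control of its array. XTH27 read 377 and 306 in HY213 and 361 and 410.5 in WT, ratios of 1.05 and 0.745. XTH32 read 9.49 and 8.05 in HY213 and 7.84 and 8.80 in WT, ratios of 1.21 and 0.914. In all 3 the groups overlap.

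The family median was -0.047, against 0.00047 over all probe sets, with -0.029 within replicate 1 and -0.028 within replicate 2. Among the 10 values behind it are those of the 3 genes under the controls. limma called 0 of 10 (0% of all probe sets) with and without the block, and AGL24 was not called either. At an unadjusted p under 0.05 there were 0 of 10 without it (0.774% of all probe sets) and 0 of 10 with it (3.63%). Only XTH19 and XTH33 were lower in estradiol-treated HY213 than in both other groups within both replicates, 2 of 10 where 10.3% of all probe sets were. In 0 of 10 were both estradiol HY213 arrays under the other 4 (3.56% of all probe sets) or above them (4.19%). The comparisons with mock and with WT share the estradiol HY213 arrays.

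Estradiol-treated WT against mock-treated HY213 mixes the line with the chemical. XTH18 read 99.2 and 268 in WT and 70.3 and 176 in mock, 1.41 and 1.52 times as high within the replicates, and a log2 difference of 0.49 ± 0.69 (SE; limma adjusted p 1). With the replicate block its unadjusted p was 0.0248, its adjusted p 0.850 and its 95% interval 0.080 to 0.90. The groups overlap across the replicates, and within a replicate number each group is 1 array. XTH16 read 10.5 and 14.8 in WT and 9.27 and 9.33 in mock, both WT arrays above both mock arrays, as in XTH20 and XTH29 under the controls (3 of 10, and 11.4% of all probe sets). XTH32 read 7.84 and 8.80 in WT and 9.94 and 11.1 in mock, both WT arrays under both mock arrays (1 of 10, and 10.6% of all probe sets), with ratios of 0.789 and 0.794. XTH33 read 7.39 and 10.2 in WT and 10.1 and 12 in mock, ratios of 0.732 and 0.846, with a blocked unadjusted p of 0.0412 and an adjusted p of 0.850.

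Within both replicates 4 of 10 were higher in WT (24.0% of all probe sets), XTH16, XTH18, XTH20 and XTH29, and 2 of 10 lower (24.2%). Both estradiol groups were under mock in XTH32 and XTH33 within each replicate, with the WT values sharing the mock arrays with the HY213 ones. XTH26 did not keep 1 direction here, at 1.18 times mock in replicate 1 and 0.288 times in replicate 2. limma called 0 of 10 with and without the block (0% of all probe sets). At an unadjusted p under 0.05 there was 1 of 10 without the block (1.18% of all probe sets), XTH29, and 3 of 10 with it (5.34%), XTH18, XTH29 and XTH33. XTH29 is under the Bacillus controls in both groups, so no fold is given for it.

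By group mean, WT was first and mock-treated HY213 last in XTH16 and XTH18, while mock was first in XTH26, XTH32 and XTH33. Estradiol-treated HY213 was last in XTH19, XTH26, XTH27 and XTH33. Neighbours in these orders overlap in their 2 arrays in every gene above the controls, except mock and estradiol-treated HY213 in XTH32.

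The widest difference among the XTH genes lay between the replicate numbers. XTH18 was lower in replicate 1 than in replicate 2 in each group, at 64.7 and 229 in estradiol-treated HY213, 70.3 and 176 in mock-treated HY213 and 99.2 and 268 in estradiol-treated WT. All 3 replicate 1 arrays are under all 3 replicate 2 arrays, in 1 of 10 XTH genes and 16.5% of all probe sets. The replicate 2 level was 3.54, 2.51 and 2.71 times that of replicate 1 in these groups, and 1.03% of all probe sets were over 2-fold apart in 1 direction in every group. On the log2(intensity + 16) scale, replicate 1 minus replicate 2 was -1.35 ± 0.15 (SE), with a limma adjusted p of 0.00224 in a model with group terms. The adjusted p stayed under 0.05 in all 13 alternatives, 0.0200 at most.

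XTH19, next to XTH18 on the chromosome in RefSeq, went the other way. It read 8.95 and 6.61 in estradiol-treated HY213, 11 and 7.40 in mock-treated HY213 and 13.6 and 6.74 in estradiol-treated WT, with all 3 replicate 1 arrays above all 3 replicate 2 arrays. XTH21, under the controls, had the same order, which makes 2 of 10 where 18.5% of all probe sets had it. The same 2 were higher in replicate 1 in every group, as were 28.0% of all probe sets. Replicate 1 of XTH19 was 1.35, 1.49 and 2.02 times replicate 2. The log2 difference was 0.24 ± 0.054 (SE; limma adjusted p 0.0272). Without the replicate 1 or replicate 2 array of estradiol-treated HY213 the difference was 0.29 and no longer called, with adjusted p of 0.0536 and 0.0654. Without that of estradiol-treated WT, the group where the replicates were farthest apart, it was 0.17 and not called either, with adjusted p of 0.0783 and 0.128. With no pseudocount the difference was 0.67, and with 64 it was 0.084, called in both. Members of this set of genes are similar in sequence, and binding of a relative's transcript to a probe set was not tested.

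These 2 genes were the XTH genes called, 2 of 10, 1 in each direction, where 4.57% of all probe sets were called higher in replicate 1 and 6.47% lower. XTH33 and XTH16 were also lower in replicate 1 in every group, which makes 3 of 10 with XTH18 (22.9% of all probe sets), and were not called. XTH33 read 0.818, 0.842 and 0.728 times replicate 2 in estradiol-treated HY213, mock-treated HY213 and WT (limma adjusted p 0.115). XTH16 read 0.531, 0.993 and 0.708 times (adjusted p 0.116). Without either mock array XTH16 passed, with adjusted p of 0.00572 and 0.00574.

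XTH26 differed between the replicates in opposite directions in the groups. Replicate 1 was 1.07 times replicate 2 in estradiol-treated HY213, 0.572 times in mock-treated HY213 and 2.34 times in WT. Its difference over all groups was 0.026 ± 0.13 (SE; limma adjusted p 0.914), and without a mock array, replicate 1 or 2, it passed at 0.23 with adjusted p of 0.0487 and 0.0325. XTH27 was 1.23 and 1.25 times as high in replicate 1 in the HY213 groups and 0.878 times in WT. The family median was 0.0031, against 0.0066 over all probe sets, with 6 of 10 higher and 4 lower.

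Other values moved with the replicate number. The root hair expansins EXPA7 and EXPA18 were called higher in replicate 1 (limma adjusted p 0.0188 and 0.0199), as were XTH19 and 4.57% of all probe sets. The summed intensity of the 2 expansins was 40.2 to 49.8 on the replicate 1 arrays and 18.9 to 34.2 on the replicate 2 arrays. All 4 green shoot genes were lower in replicate 1 in every group, as were 3 of 10 XTH genes, XTH18 among them, and 22.9% of all probe sets. Their sum was 1866 to 2448 on the replicate 1 arrays and 2845 to 3310.1 on the replicate 2 arrays. Of the 4, 1 was called, the Rubisco activase gene RCA (limma adjusted p 0.0375), where 6.47% of all probe sets were called lower. The actin 3' to 5' ratio was higher in replicate 1 within each group, at 2.01 to 3.87 on the replicate 1 arrays and 1.86 to 2.06 on the replicate 2 arrays. The GAPDH ratio did not move with the replicate number, at 2.76 to 3.54 on the replicate 1 arrays and 3.03 to 3.29 on the replicate 2 arrays. The highest Bacillus control was 5.99 to 6.22 on the replicate 1 arrays and 5.14 to 5.31 on the replicate 2 arrays, and 58.2 to 60.5% of probe sets stood above it in replicate 1 and 69.0 to 72.7% in replicate 2. XTH19, called higher in replicate 1, read only 1.25 to 2.19 times that control. Their part in the XTH differences was not tested.

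**Figure D3:**
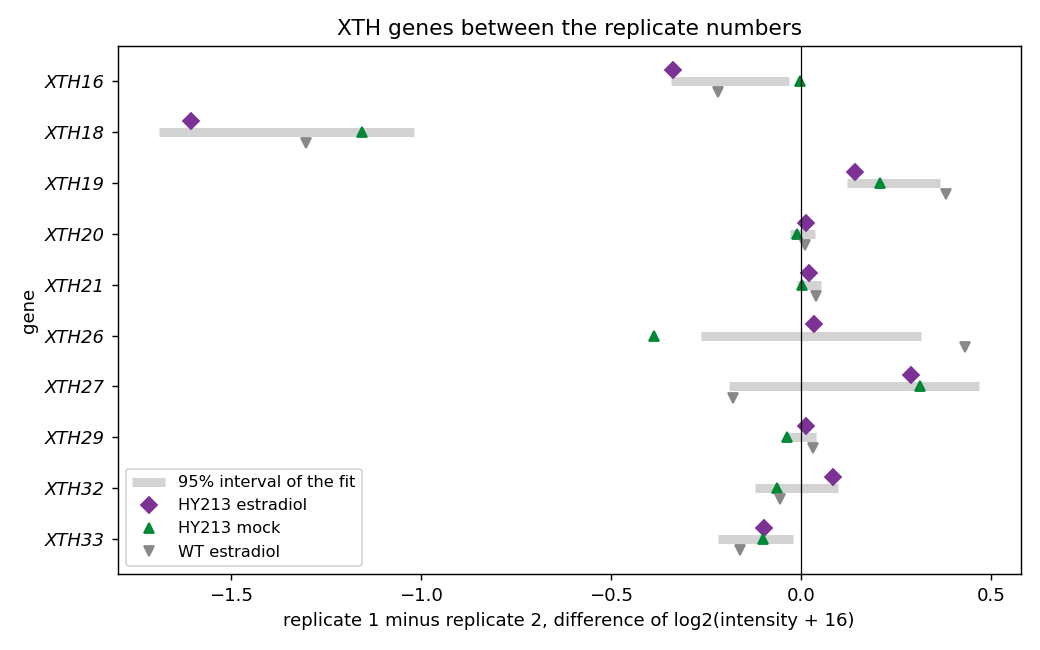
Replicate 1 minus replicate 2 as a difference of log2(intensity + 16) for each XTH gene (rows), within estradiol-treated HY213 (diamonds), mock-treated HY213 (upward triangles) and estradiol-treated WT (downward triangles), with the 95% interval of the fit as a grey bar. XTH18 lies far below 0 in every group, XTH19 above 0 in every group, and XTH26 on both sides.

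Genes with the most similar pattern were sought for the 3 XTH genes with the widest range over the arrays, by the root mean square difference between profiles of log2(intensity + 16), each centred on its own mean over the 6 arrays. Candidates were 6423 probe sets of 1 gene above the Bacillus controls on every array. The genes named were picked for a like profile, so a pattern they share with the XTH gene follows from the choice. For XTH18 the closest were AT4G34150 (0.13 log2 units), AT1G07040 (0.14) and OSM34, which encodes an osmotin-like protein (0.17). OSM34 read 123 and 474 in estradiol-treated HY213, 190 and 413 in mock-treated HY213 and 223 and 488 in WT, so it too was higher in replicate 2 in each group. The closest XTH gene, XTH16, was 0.60 away, and 1023 candidates were closer than XTH16. The neighbour XTH19 was 0.82 away, more than the 0.71 of a flat profile.

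For XTH26 the closest were AT1G30760 (0.090), AT1G60010 (0.10) and AT4G30450 (0.11). The closest XTH gene, XTH32, was 0.20 away, and 353 candidates were closer than XTH32. AT1G30760 read 12.8 and 7.21 in estradiol-treated HY213, 14.1 and 21.8 in mock-treated HY213 and 15.9 and 9.14 in WT, with the mock replicate 2 array highest, as in XTH26. The root hair expansins were farther off, EXPA7 at 0.23 and EXPA18 at 0.26, where a flat profile is 0.23 from XTH26. EXPA18 read 18.6 and 9.56 in estradiol-treated HY213, 24.2 and 17.4 in mock-treated HY213 and 28.4 and 8.87 in WT. XTH26 and EXPA18 thus share a low WT replicate 2 array and differ in mock, where XTH26 was higher in replicate 2 and EXPA18 in replicate 1.

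For XTH27 the closest were AT1G64430 (0.033), AT5G08520 (0.050) and AT5G11070 (0.055), with 0.15 for the closest XTH gene and for a flat profile. That XTH gene was XTH21, which is under the controls, and 1523 candidates were closer than it. AT1G64430 read 28.2 and 21.6 in estradiol-treated HY213, 33.4 and 24.7 in mock-treated HY213 and 28.3 and 31.2 in WT. As in XTH27, replicate 1 was the higher one in both HY213 groups and the lower one in WT.

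**Figure D4:**
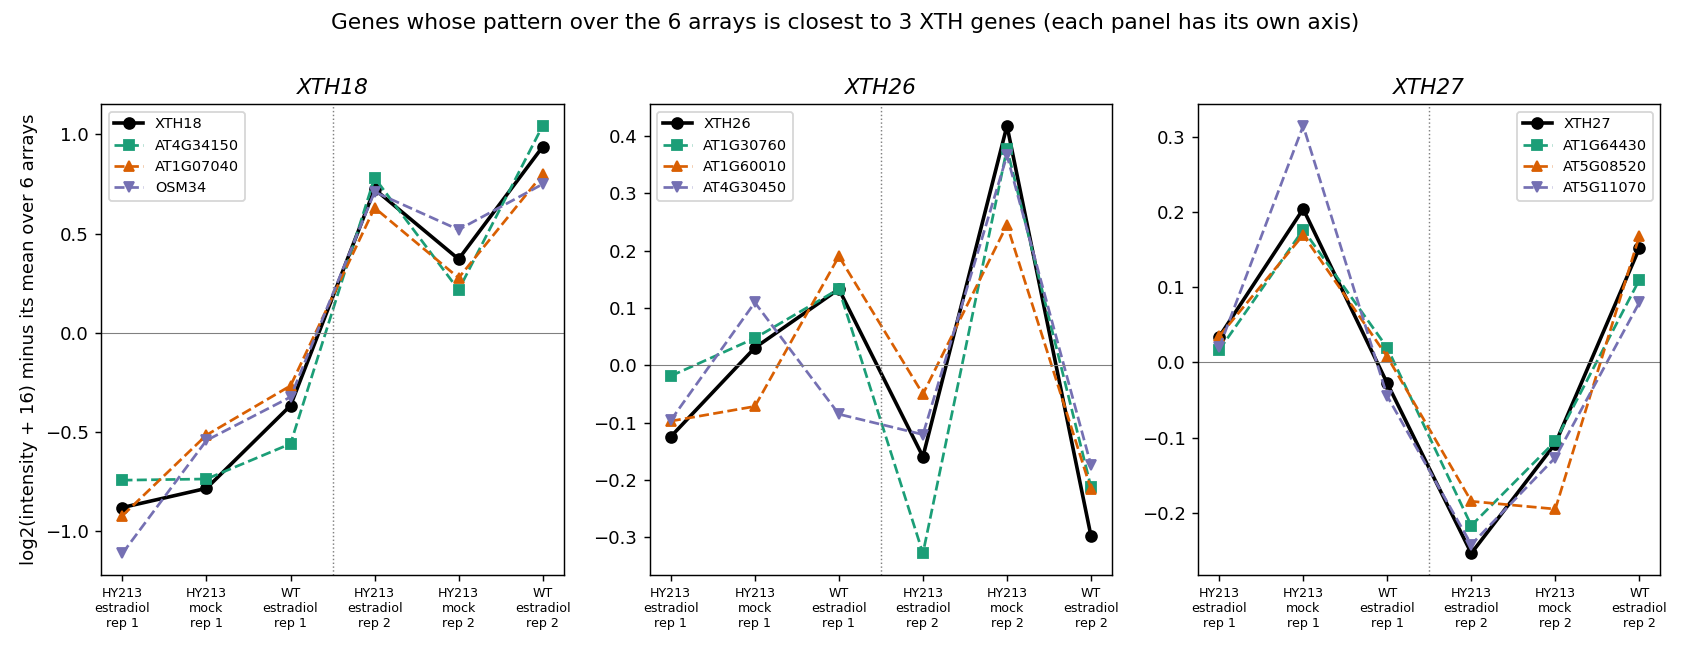
Profiles over the 6 arrays of XTH18, XTH26 and XTH27 (black) and of the 3 genes closest to each (coloured, dashed), as log2(intensity + 16) minus its mean over the arrays, each panel with its own axis and replicate 1 left of the dotted line. XTH18 and its closest genes stand below 0 in replicate 1 and above it in replicate 2, XTH26 peaks in mock replicate 2, and XTH27 is lowest in estradiol-treated HY213 replicate 2.

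Of the list for xyloglucan synthesis and trimming, 5 of 25 names had a probe set listed for that gene alone, all of them CSLC glucan synthase genes. In any comparison of groups 0 of 5 were called, where 0% of all probe sets were. Between the replicates 0 of 5 were called as well, where 4.57% of all probe sets were called higher and 6.47% lower. CSLC4, the member known for most of the xyloglucan backbone, read 37.0 and 56.2 in estradiol-treated HY213, 45.3 and 53.3 in mock-treated HY213 and 49.2 and 64.9 in WT. It was higher in replicate 2 in every group, as XTH18 was (limma adjusted p 0.107). CSLC6 read 12.1 and 12.2 in estradiol-treated HY213, 13.9 and 16.8 in mock-treated HY213 and 15.2 and 15.7 in WT. Both estradiol HY213 arrays are under the other 4 in CSLC6 alone of the 5 genes, and in 3.56% of all probe sets. The blocked limma unadjusted p of CSLC6 was 0.0651 against mock and 0.0587 against WT, with an adjusted p of 0.998 in both.

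CSLC5 read 19.0 and 22.4 in estradiol-treated HY213, 20.8 and 26.2 in mock-treated HY213 and 23.6 and 21.9 in WT. CSLC8 lay between 5.95 and 7.59 and CSLC12, under the Bacillus controls on 2 arrays, between 5.37 and 6.36. The median log2 difference of the 5 genes was -0.075 against mock and -0.080 against WT. The 30 brassinosteroid names were chosen because that hormone is known to act on XTH genes. Only the receptor gene BRL1 had a probe set listed for it alone, at 5.17 to 6.17. Of 6 touch gene names 0 had one. The probe sets with no gene listed were not searched for these names.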

How the data were processed

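Total RNA was biotin-labelled and hybridised to 6 arrays, per the labels' protocols. The authors deposited 1 table of intensity values on a linear scale. MAS5 and RMA appear, with no role or version, in the submitters' processing notes; how the arrays were scaled is not stated there. The 64 control probe sets were left out. Platform annotation lists 13513 of the other 22746 for 1 gene, and 13436 of these matched RefSeq (TAIR10.1). Groups and replicate numbers came from the titles.

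Values were taken to log2(value + 16), a pseudocount above the array medians that shrinks the differences of dim genes, then modelled over all 6 arrays by lmFit and trended eBayes of limma 3.58.1 (R 4.3.3), with Benjamini-Hochberg adjustment over all probe sets and a threshold of 0.05. The difference between the replicate numbers was fitted with group terms. The number of arrays limits the precision: 3 residual degrees of freedom, 2 with the replicate block, and 0.333 is the smallest two-sided p that exact permutation of 2 against 2 arrays allows. Deviations from the group means correlated across probe sets between arrays with the same number (r 0.693, 0.822 and 0.665), and the design text speaks of replicate experiments, so blocked values stand beside the results. The fit was run on simulated normal values with known changes to check its estimates, and its power on these arrays is not given here.

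Named genes were all members, up to 4 per list by highest mean (all 5 CSLC genes are given), and 3 genes closest to each of the 3 members with the widest range. The members and lists were chosen with earlier results of these data known. Alternatives were pseudocounts of 1, 64 and none, quantile and median normalization, leaving out the dimmest 25% of probe sets, the replicate block and a fit to the 4 arrays compared (for the replicate numbers, in place of both, a fit without group terms), leaving out each array and, added after seeing the data, the block without a pseudocount. A mean over a gene's probe sets was not run, since each member has 1. The planned sequence features were not used here.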

Additional observations from a re-analysis of the deposited data

How the results depend on the processing

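The 10 XTH genes gave 0 calls in each of the 3 comparisons of groups under the alternatives other than leaving out 1 array, the replicate block included. Of all 22746 probe sets these alternatives called 0, or 1 with the block and no pseudocount against mock and against WT. A count of 0 of 10 is thus no trait of the family. Between the replicate numbers the count was 2 in all 7 alternatives that keep every array and 1 to 4 with 1 array left out. An array left out takes its group out of that comparison, which then rests on the other 2 groups. The count was 1 without an estradiol HY213 array, where 681 and 637 of all 22746 probe sets were called, 1 without a WT array (1036 and 966) and 4 without a mock array (4053 and 4062), against 2510 with every array. For the 7 genes above the Bacillus controls, the alternatives that keep every array reversed 0 directions. The family median for estradiol against mock was -0.042, and -0.086 with a pseudocount of 1 or none, -0.014 with 64, -0.099 without the dimmest 25% of probe sets, which removes the 3 genes under the controls, and -0.064 to -0.0014 with 1 array left out, nearest 0 without mock replicate 1. For estradiol HY213 against WT it was -0.047, and -0.088 with a pseudocount of 1, -0.018 with 64, -0.092 with none (with the replicate block also -0.092), -0.048 with quantile normalization, -0.046 with a common median, -0.13 without the dimmest 25% and -0.047 to -0.0030 with 1 array left out. For WT against mock it was 0.016, and 0.054 with a pseudocount of 1, 0.065 with none (with the replicate block also 0.065) and -0.029 to 0.016 with 1 array left out.

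With 1 array left out, the difference between the replicates enters the group means, and some directions reversed. Against mock, XTH16 ranged from -0.15 to 0.19, XTH18 from -0.67 to 0.93 and XTH19 from -0.19 to 0.021. Against WT, XTH16 ranged from -0.32 to 0.016, XTH18 from -1.17 to 0.44, XTH19 from -0.32 to 0.063, XTH26 from -0.27 to 0.16, XTH32 from -0.016 to 0.068 and XTH33 from -0.12 to 0.045. For WT against mock, XTH18 ranged from -0.16 to 1.14, XTH19 from -0.14 to 0.24 and XTH27 from -0.14 to 0.17. Between the replicates, XTH26 ranged from -0.18 to 0.23 and XTH32 from -0.060 to 0.014, while XTH18 stayed between -1.45 and -1.23. Signal over background limits XTH16, XTH19, XTH26, XTH32 and XTH33, which read 1.07 to 3.80 times the highest Bacillus control of the array.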
